A study of Mus musculus with 4 samples.

Results

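Smooth muscle cells made up 400 of the 7350 cells of a day 0 mouse lung library, 5.44% (exact binomial 95% interval 4.93 to 5.99%). They were chosen by their own counts of unique molecular identifiers (UMIs, 1 per captured RNA molecule). A member had at least 2 UMIs of Myh11, the smooth muscle myosin heavy chain, and at least 5 UMIs of Tagln and Acta2 together, which encode the actin-binding protein transgelin and smooth muscle alpha-actin. It had no UMI of Cldn5, an endothelial tight junction gene, or of Ptprc, the pan-leukocyte gene. Cells were barcodes in which 500 or more genes were detected and mitochondrial UMIs made up no more than 15%. The series held 42105 barcodes in 4 libraries.

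The library came from lung of Gramd2creERT2;mTmG mice and is labelled as its GFP-positive cells, taken as day 0. Reporter counts are given at the end, and cells with at least 2 reporter UMIs were classed by them. Cells with fewer were not classed. EGFP, the GFP of the reporter, made up at least 80% in 6 of 94 such members and 613 of 2540 other such cells. These are RNA counts without correction for free RNA. Whether a cell was GFP-positive when sorted was not tested. In these mice a tamoxifen-inducible Cre under the alveolar type 1 (AT1) gene Gramd2 switches a ubiquitous tdTomato reporter to EGFP in the cells where it has acted. The other 3 libraries hold 3D organoid cultures of such cells with MLg mouse lung fibroblasts and the TGF-beta receptor inhibitor SB 431542 at days 8, 13 and 20, enriched for EpCAM-positive epithelium before capture. Every group shares the genotype, and the labels give neither age, sex nor the number of mice. Each day is 1 library, so nothing below is a test between samples and all values describe these cells.

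The labels name the sorted cells alveolar epithelial cells and the molecule nuclear RNA, whereas the protocol describes single-cell suspensions. Members carried smooth muscle markers that the choice did not use, though these too were named with earlier results of these data known. Des was detected in 348 of the 400, Mustn1 in 373 and Actc1 in 216. Among the other day 0 cells the shares were 3.19% for Des, 6.49% for Mustn1 and 0.633% for Actc1. A member held 697 to 12906 UMIs (median 2716.5) in a median of 1397.5 genes, and its median mitochondrial share was 4.41%. The other 6950 day 0 cells, called the rest below, had medians of 2537 UMIs, 1288 genes and 3.84%. Levels are in CPM: a gene's UMIs summed over the cells of a group, per 1000000 UMIs of that group, so they compare groups within a gene. Intervals are exact, at 95%, and cover counting error only.

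Smooth muscle surrounds the airways and the larger vessels of the lung and sets their calibre. It contracts when calcium, through calmodulin, activates myosin light chain kinase, which phosphorylates the myosin regulatory light chain; cyclic GMP and cyclic AMP relax it. Its contractile genes are largely switched on by serum response factor with its partner myocardin, at a DNA element called the CArG box.

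The promoters of 3 contractile or anchoring genes are shown because they hold a CArG box directly before the start. The sequences are the 250 bases before the start, from RefSeq (GRCm38.p6, 5' to 3' on the gene's strand, for Ldb3 1 of the starts listed). Capitals mark the box, of the letters C, C, then 6 of A or T, then G, G, which reads as the same motif on both strands; no other motif was searched.

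Actc1 (chr2:114052876-114053125, minus strand): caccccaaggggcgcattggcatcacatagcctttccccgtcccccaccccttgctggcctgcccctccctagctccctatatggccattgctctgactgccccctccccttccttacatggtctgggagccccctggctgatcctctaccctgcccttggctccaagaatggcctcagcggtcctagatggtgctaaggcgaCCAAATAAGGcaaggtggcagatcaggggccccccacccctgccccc
Myl9 (chr2:156775214-156775463, plus strand): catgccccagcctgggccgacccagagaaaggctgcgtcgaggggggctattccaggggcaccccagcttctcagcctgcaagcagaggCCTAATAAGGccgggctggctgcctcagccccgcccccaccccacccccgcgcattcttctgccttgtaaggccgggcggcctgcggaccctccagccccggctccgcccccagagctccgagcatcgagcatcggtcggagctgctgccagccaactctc
Ldb3 (chr14:34588682-34588931, minus strand): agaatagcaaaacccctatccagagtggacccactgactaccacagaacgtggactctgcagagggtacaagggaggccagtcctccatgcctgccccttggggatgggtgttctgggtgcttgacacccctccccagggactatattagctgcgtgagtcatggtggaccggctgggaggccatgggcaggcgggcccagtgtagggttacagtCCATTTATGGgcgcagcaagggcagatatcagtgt
The window of Actc1 lies before the RefSeq start, which is inside the longer gene span of the other annotation used below. The box of Actc1 began 47 bases before the start, that of Myl9 161 and that of Ldb3 35. A box was present in the same window of 1.62% of all 27025 genes listed by RefSeq there. Of the 25 genes with the largest ratios of members over the rest, 17 had a window and 3 of these held a box (17.6%). By list, it was 2 of 9 thin filament, 2 of 10 thick filament, 4 of 21 anchoring, 1 of 9 pericyte, 0 of 10 fibroblast and 0 of 4 endothelial genes. The thin filament boxes were in Actc1 and in Acta1, which had 0 UMIs in members, and boxes were also found in the AT1 genes Ager and Hopx. A match describes letters in the window and not binding.

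The thin filament, the actin cable on which myosin pulls, had a median log2 ratio of 6.93 in members over the rest, against -0.04 over all genes tested. A gene was called when it was at least 2-fold apart and had at least 20 CPM in the higher group. All 10 thin filament genes tested were called higher in members, against a background of 1200 of 7968 genes (15.1%). Acta2 and Tagln are among them; they chose the members and support nothing. A member held 1 to 252 Acta2 UMIs (median 31), 0 to 207 of Tagln (median 31) and 2 to 42 of Myh11 (median 6).

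Of the thin filament genes that the choice did not use, Actc1 (chr2:114047282-114053548 of GRCm38, minus strand), the actin of the heart and of some smooth muscle, reached 1651 CPM (1578 to 1727) in members and 7.81 CPM in the rest, a log2 ratio of 7.72 (7.53 to 7.93). The rest holds cells with muscle UMIs that missed the choice. With those that had a Myh11 UMI or at least 5 of Tagln and Acta2 taken out, 24 of 40 named log2 ratios against the rest moved beyond their counting interval (by up to 4.11), that of Actc1 to 11.84. Actg2 (chr6:83512905-83536265, minus strand), the gamma-actin of gut smooth muscle, stood at 1083 CPM in members against 7.37 CPM in the rest. Cnn1, calponin, which binds actin and slows myosin, was detected in 243 members and stood at 786 CPM in members against 4.29 CPM in the rest. Tpm2, a tropomyosin, had 5262 CPM in members against 42.4 CPM in the rest. Lmod1, a leiomodin that starts actin filaments, had 470.0 CPM in members against 4.39 CPM in the rest. The broadly used Cald1, caldesmon, and Tpm1 had smaller log2 ratios of 3.99 and 4.24. Skeletal muscle actin, Acta1, had 0 UMIs in members, which allows up to 3.20 CPM. The muscle actins are near-identical in coding sequence, and how reads that match several of them were assigned is not given in the sources used here, so counts of Acta2, Actc1 and Actg2 are uncertain to that extent.

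**Figure D1:**
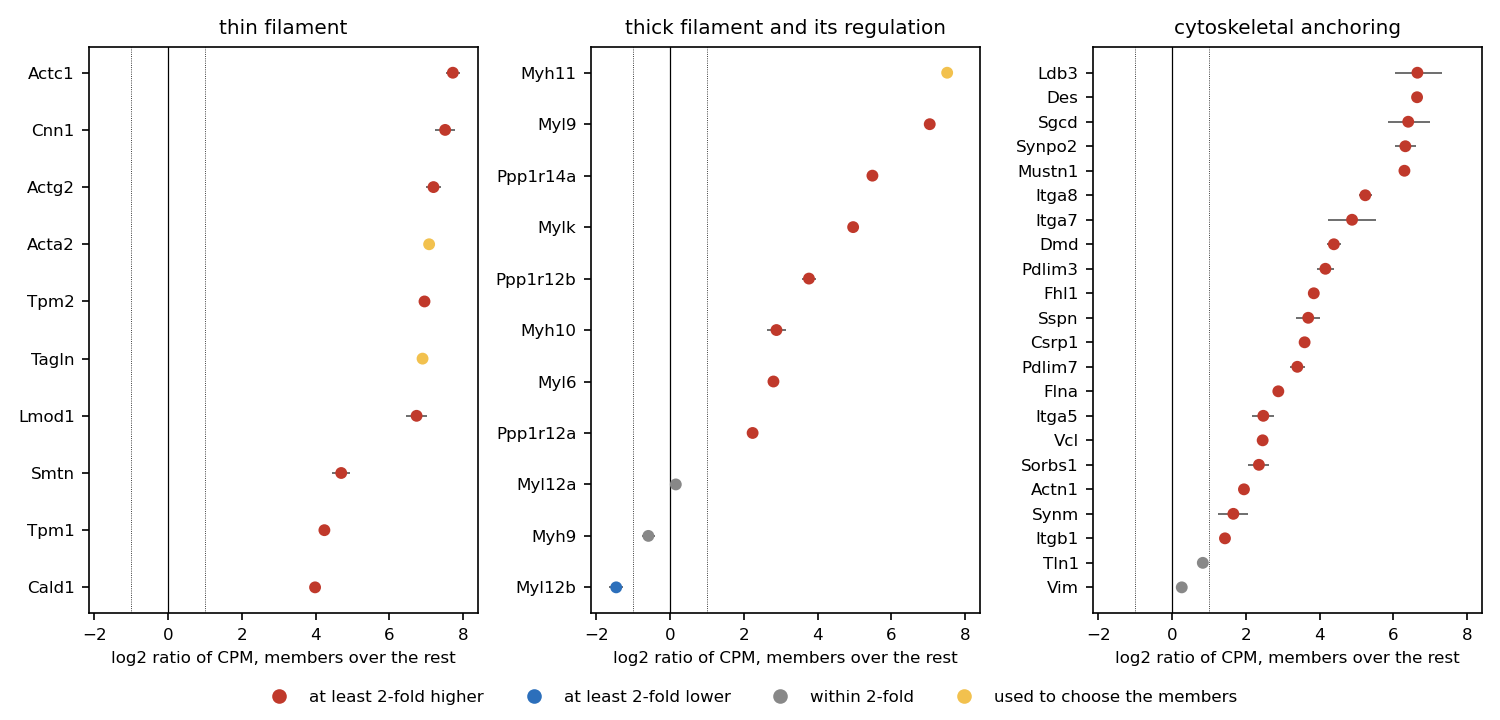
Log2 ratio of CPM, members over the rest of the day 0 library, of each tested gene of the thin filament, thick filament and anchoring lists, with its exact counting interval; colours mark the call, and yellow points were used to choose the members. Every thin filament gene lies right of the dotted 2-fold line, while Myl12b lies left of it and Vim, Tln1, Myh9 and Myl12a lie between the lines.

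The myosin side was mixed. Of the thick filament and its regulation, 8 were called higher and 1 lower of 11 tested, Myh11, which chose the members, among the higher. Myl9, the regulatory light chain of smooth muscle myosin, was detected in 395 of 400 members and stood at 4329.7 CPM in members against 32.8 CPM in the rest. Mylk, the kinase that phosphorylates it, stood at 1252 CPM in members against 40.1 CPM in the rest. Ppp1r14a, an inhibitor of myosin phosphatase, stood at 1828 CPM in members against 40.7 CPM in the rest. The genes of non-muscle myosin did not share this direction. Myl12b, one of its light chains, was lower, at 191 CPM in members against 525 CPM in the rest, and Myl12a had 436 CPM in members against 391 CPM in the rest. Myh9, a non-muscle myosin heavy chain, had 225 CPM in members against 337 CPM in the rest, below the fold used for a call.

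Of the anchoring and force-transmitting genes 20 of 22 were higher and none lower (median log2 ratio 3.64). Des, the muscle intermediate filament desmin, stood at 1642 CPM in members against 16.4 CPM in the rest, with 0 to 64 UMIs a member. Mustn1, a small protein of the musculoskeletal system, stood at 3184 CPM in members against 40.3 CPM in the rest. Ldb3, which sits at the discs that anchor actin, had 95.4 CPM in members against 0.946 CPM in the rest, and Synpo2, an actin-bundling protein of such discs, had 350.3 CPM in members against 4.36 CPM in the rest. The exceptions were the broadly expressed Vim, vimentin, at 1527 CPM in members against 1272 CPM in the rest, and Tln1, talin, at 414 CPM in members against 232 CPM in the rest.

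Genes of striated muscle, of metabolism and of secretion also ranked among the 25 largest ratios. Tcap, which caps titin in striated muscle, had 304 CPM in members against 2.37 CPM in the rest. Abra, an actin-binding protein of striated muscle, had 59.8 CPM in members against 0.372 CPM in the rest, and Hspb7, a small heat shock protein of muscle, had 142 CPM in members against 1.22 CPM in the rest. Slc2a4, the insulin-responsive glucose transporter, stood at 54.6 CPM in members against 0.439 CPM in the rest. Plin4, a lipid droplet coat protein, stood at 85.8 CPM in members against 1.05 CPM in the rest. Aoc3, an amine oxidase of smooth muscle and fat, stood at 187 CPM in members against 1.72 CPM in the rest.

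Secreted products in that group were Timp4, an inhibitor of metalloproteinases, at 193 CPM in members against 1.52 CPM in the rest, and Itih4, of the inter-alpha-trypsin inhibitor heavy chains, at 229 CPM in members against 2.37 CPM in the rest. The neurotrophin gene Ntf3 had 92.8 CPM in members against 0.879 CPM in the rest. Timp4 lies within Syn2 on the other strand, which had 11 UMIs in members against 223 of Timp4. Tagln overlaps Pcsk7 likewise, with 15 UMIs of Pcsk7 against 16430 of Tagln. Of heart muscle genes, 6 of 12 were at 0 UMIs in members, among them Myh6, Myl7 and Nppa. Tnnt2, cardiac troponin T, reached 28.6 CPM in members against 0.270 CPM in the rest.

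Channels for calcium and potassium were mostly higher in members. Of the calcium and ion channel genes, 14 were called higher and 1 lower of 16 tested. Kcnmb1, the smooth muscle subunit of the large calcium-activated potassium channel, stood at 88.4 CPM in members against 0.777 CPM in the rest. Cacna1c, the L-type calcium channel, had 162 CPM in members against 3.58 CPM in the rest. Kcnk3, a background potassium channel, had 280.1 CPM in members against 4.83 CPM in the rest. Jph2, which ties the sarcoplasmic reticulum to the cell membrane, had 108 CPM in members against 1.66 CPM in the rest. Orai1, the store-operated channel of the plasma membrane, was the gene called lower, at 19.1 CPM in members against 79.9 CPM in the rest.

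Of the contractile and relaxant receptors, 8 were called higher and 1 lower of 10 tested. Ednra, the endothelin A receptor, had 157 CPM in members against 7.84 CPM in the rest. Ramp1, a partner of the receptor for calcitonin gene-related peptide, had 378 CPM in members against 155 CPM in the rest, and Chrm2, a muscarinic acetylcholine receptor, had 64.2 CPM in members against 3.41 CPM in the rest. Chrm3, the muscarinic receptor that mediates airway contraction, had 2 UMIs in the 400 members. Of the cyclic nucleotide signalling genes 11 of 12 were higher than in the rest. Against cells chosen by pericyte genes, given below, 3 of 11 were. Gucy1a1, a subunit of the nitric oxide receptor, stood at 428 CPM in members against 26.3 CPM in the rest, and Gucy1b1, its other subunit, at 299 CPM in members against 17.6 CPM in the rest. Adcy5, an adenylyl cyclase, had 149 CPM in members against 2.30 CPM in the rest.

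Among transcription factors 14 of 25 were higher and 3 lower. Myocd, myocardin, was detected in 106 members and stood at 121 CPM in members against 1.12 CPM in the rest. Srf, its widely expressed partner, had 24.3 CPM in members against 12.1 CPM in the rest. Tbx5 and Tbx4 act in lung mesenchyme; Tbx5 had 112 CPM in members against 5.81 CPM in the rest, and Tbx4 had 92.8 CPM in members against 6.90 CPM in the rest. The Krüppel-like factors were lower, Klf2 at 92.8 CPM in members against 602 CPM in the rest and Klf4 at 55.5 CPM in members against 242 CPM in the rest. Of the Notch pathway 3 of 7 genes were higher. The receptor Notch3 stood at 511 CPM in members against 13.7 CPM in the rest, while the receptors Notch1 and Notch2 were not called. Heyl, a Notch target, had 159.6 CPM in members against 3.31 CPM in the rest, and Hey2, another, had 66.8 CPM in members against 1.08 CPM in the rest.

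Matrix genes were also high in members. Of the interstitial matrix, 24 were called higher and 1 lower of 29 tested; of the basement membrane, 14 were called higher and 0 lower of 15 tested. Eln, elastin, stood at 1537 CPM in members against 69.7 CPM in the rest. Col3a1, a fibrillar collagen, stood at 1119 CPM in members against 105 CPM in the rest. Aspn, the small proteoglycan asporin, had 849.8 CPM in members against 16.5 CPM in the rest, and Col18a1, a basement membrane collagen, had 239 CPM in members against 6.15 CPM in the rest. Dcn, decorin, was the matrix gene called lower, at 52.9 CPM in members against 181 CPM in the rest.

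Of the secreted signals 13 were higher and 6 lower of 24 tested, beside 15.1% higher and 21.1% lower of all genes tested. Their lower share was near that of all genes. Angpt1, an angiopoietin that acts on endothelium, stood at 176 CPM in members against 9.97 CPM in the rest. The growth factor genes Vegfa and Tgfb1 lay the other way, Vegfa at 69.4 CPM in members against 351 CPM in the rest and Tgfb1 at 17.3 CPM in members against 159 CPM in the rest. Of heat shock genes, 7 were called higher and 0 lower of 11 tested, with Hspa1a, an inducible chaperone, at 617 CPM in members against 35.5 CPM in the rest. Of the immediate early genes, which also respond to tissue dissociation, 2 of 11 were higher, a share near the 15.1% of all genes tested, Egr1 at 1167 CPM in members against 253 CPM in the rest and Nr4a1 at 399.8 CPM in members against 159.5 CPM in the rest. Cell division genes were low, with all 8 tested called lower and a summed level of 26.0 CPM in members, against 400.3 CPM in the rest.

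On the low side 1681 genes were called, 21.1% of those tested. The lowest ratios were of leukocyte and endothelial genes, the classes that the choice of members left out by Ptprc and Cldn5. S100a8, a neutrophil protein, had 2 UMIs in members and 1419 CPM in the rest. In members Mpeg1, of macrophages, had 1 UMI and Cdh5, the endothelial cadherin, 3 UMIs. All 9 endothelial genes tested, of which the choice set Cldn5 to 0, were lower, as were all 12 myeloid and 10 lymphoid genes tested; the choice bears on these lists too. So were all 9 AT1 genes, summed to 908 CPM in members, against 3902 CPM in the rest. Scgb1a1, the club cell secretoglobin, was detected in 100% of members and in 99.9% of the 2365 immune cells, those with at least 2 Ptprc UMIs and no Cldn5. At those shares its detection in members is no sign of its expression there. Of the AT2 genes 1 of 9 was called lower, summed to 2346 CPM in members, against 3436 CPM in the rest and 749 CPM in immune cells. In members, 1866 UMIs of these AT2 genes were in 1 cell.

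The edge of the choice ran through a gradient of muscle genes. The 56 members with exactly 2 Myh11 UMIs had 989 CPM of Des and 3149 CPM of Myl9, against 1642 CPM of Des and 4329.7 CPM of Myl9 in all members. The 54 cells that met everything else with 1 Myh11 UMI had 984 CPM of Des and 2318 CPM of Myl9. The 59 cells with no Myh11 UMI had 401 CPM of Des and 909 CPM of Myl9. At the other minimum, 2 members had 5 or 6 UMIs of Tagln and Acta2 together, and 3 cells that met everything else had 3 or 4. A further 43 cells reached both muscle minimums but carried a Cldn5 or Ptprc UMI.

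The members fell into all 8 combinations of Actc1, Actg2 and Rgs5 (chr1:169655501-169695813, plus strand), a regulator of G protein signalling known from pericytes and vascular smooth muscle. Actc1 was detected in 216 members (54%, 49.0 to 59.0%). Actg2 was detected in 314 (78.5%, 74.1 to 82.4%) and Rgs5 in 186 (46.5%, 41.5 to 51.5%). The largest combination was Actc1 and Actg2 without Rgs5, with 133 members. Actg2 and Rgs5 without Actc1 took 71, all 3 genes 62, Actg2 alone 48, Rgs5 alone 47 and Actc1 alone 15. Actc1 with Rgs5 but no Actg2 was seen in 6. None of the 3 genes was detected in 18 members, whose median depth was 1279 UMIs.

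**Figure D2:**
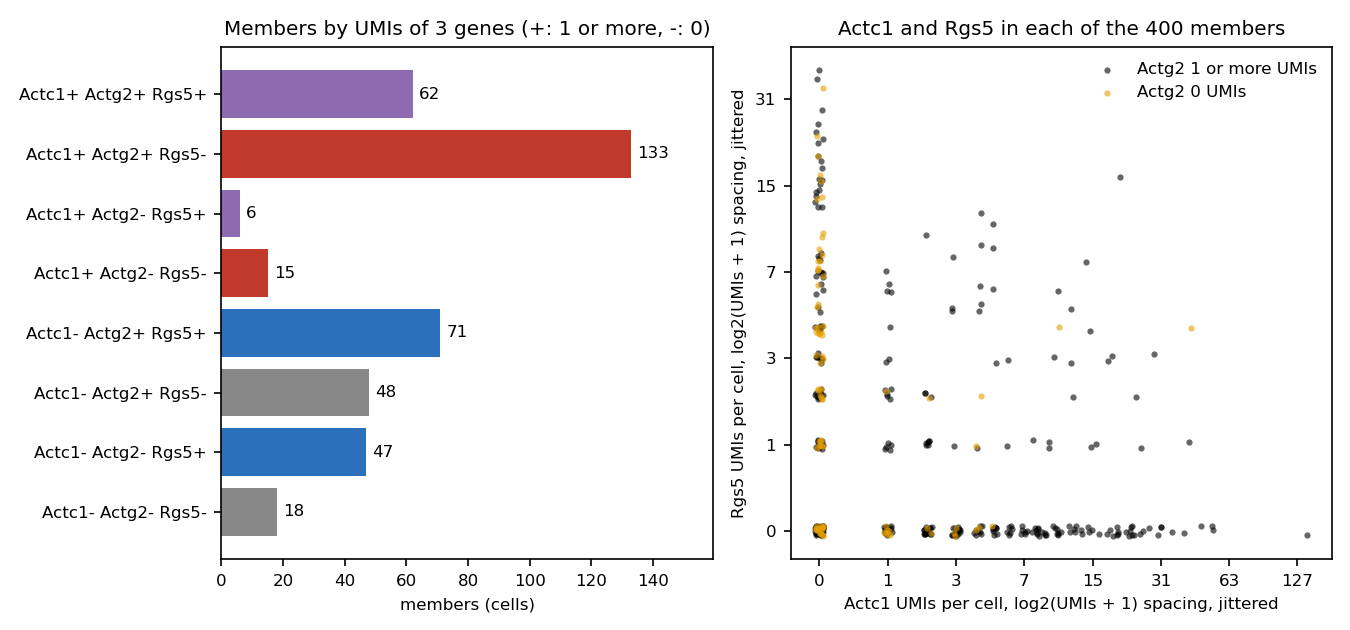
Left, number of members in each combination of Actc1, Actg2 and Rgs5 (+, 1 or more UMIs), coloured red for Actc1 only, purple for Actc1 and Rgs5, blue for Rgs5 only and grey for neither; right, Actc1 and Rgs5 UMIs of each of the 400 members, coloured by Actg2. The longest bar is Actc1 and Actg2 without Rgs5 (133 cells), and most cells lie along one of the axes of the right panel, with 68 cells off both.

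Actg2 was detected more often beside Actc1, and Rgs5 less often. Actg2 was detected in 90.3% of the 216 members with Actc1, against 64.7% of the 184 without. Rgs5 was detected in 31.5% of members with Actc1, against 64.1% of those without. With every cell thinned to 2000 UMIs, which left out 121 members, the shares over members were 53.4% for Actc1, 76.3% for Actg2 and 44.4% for Rgs5. Over those 279 cells, which share 1 library and 1 depth, Spearman's rank correlation was 0.35 between Actc1 and Actg2, -0.38 between Actc1 and Rgs5 and -0.23 between Actg2 and Rgs5, given as descriptions of sparse counts.

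Many of these detections rested on few molecules, so the lack of a UMI does not show that a gene was off. Exactly 1 UMI was found in 42 members for Actc1, 77 for Actg2 and 44 for Rgs5. At least 5 UMIs were found in 104 members for Actc1, 88 for Actg2 and 74 for Rgs5. In immune cells (median 4279 UMIs), which should lack these genes, the shares were 0.381% for Actc1, 0.761% for Actg2 and 1.18% for Rgs5.

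Setting Actc1 against Rgs5 gave 148 members with Actc1 only, 68 with both, 118 with Rgs5 only and 66 with neither. The median depth was 2953 UMIs with Actc1 only and 2555.5 UMIs with Rgs5 only, and the median mitochondrial share 4.78% with Actc1 only and 3.70% with Rgs5 only. Of 6975 genes tested, 530 (7.6%) were called higher with Actc1 only and 942 (13.5%) lower. Where the counting interval of the ratio had also to leave out 1, 280 were higher and 550 lower.

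Many contractile genes were not called between the sides. Myh11, Tagln and Acta2 differed by less than 2-fold, but they chose the members, so their presence on both sides shows nothing. Myh11 stood at 3117 CPM with Actc1 only against 1764 CPM with Rgs5 only. Acta2 stood at 17712.5 CPM with Actc1 only against 9840 CPM with Rgs5 only. Tagln and Acta2 are also among the 10 thin filament genes that follow. Of the 10 thin filament genes tested, 4 were called higher with Actc1 only (Actc1 itself, Actg2, Cnn1 and Smtn) and 0 lower, with a median log2 ratio of 0.89, against -0.15 over all genes tested. Cnn1 stood at 1009 CPM with Actc1 only, 1004 CPM with both, 252 CPM with Rgs5 only and 835 CPM with neither. Of the anchoring genes 8 of 23 were higher and none lower (median 0.73). Flna, filamin, which cross-links actin, had 2193 CPM with Actc1 only against 1061 CPM with Rgs5 only. Itga5, an integrin subunit for fibronectin, had 149.7 CPM with Actc1 only against 6.63 CPM with Rgs5 only, and Itga8, another integrin subunit, had 637 CPM with Actc1 only against 305 CPM with Rgs5 only.

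Secreted and stress genes were among those higher with Actc1 only. Timp4 was detected in 66 members with Actc1 only and 1 with Rgs5 only, at 366 CPM with Actc1 only against 3.32 CPM with Rgs5 only. Itih4 was detected in 52 members with Actc1 only and 1 with Rgs5 only, at 419 CPM with Actc1 only against 3.32 CPM with Rgs5 only. Ccn3, a matricellular protein, was detected in 86 members with Actc1 only and 7 with Rgs5 only, at 637 CPM with Actc1 only against 29.8 CPM with Rgs5 only. Clu, clusterin, an extracellular chaperone, was detected in 58 members with Actc1 only and 5 with Rgs5 only. Of heat shock genes 6 of 11 were higher. Among these Hspb1, a small heat shock protein, had 2319.6 CPM with Actc1 only against 421 CPM with Rgs5 only, Hspa1a had 793 CPM with Actc1 only against 282 CPM with Rgs5 only, and Hspb6, a small heat shock protein of muscle, had 177 CPM with Actc1 only against 3.32 CPM with Rgs5 only.

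Other genes among the 12 largest ratios on that side are given next. Abra had 47 UMIs with Actc1 only and 0 with Rgs5 only, at least 10.1-fold higher with Actc1 only when the group of 0 is set to 3 UMIs. Plin4 had 148 CPM with Actc1 only against 9.95 CPM with Rgs5 only. Pdlim4, an actin-linked LIM protein, had 173 CPM with Actc1 only against 16.6 CPM with Rgs5 only, and S100a4, a calcium-binding protein, had 695 CPM with Actc1 only against 76.3 CPM with Rgs5 only.

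Pericyte genes lay on the other side. Of the pericyte list 10 of 14 were lower with Actc1 only (median log2 ratio -1.66), and Cspg4, a proteoglycan of pericytes and muscle, was higher (130.4 CPM with Actc1 only against 16.6 CPM with Rgs5 only). Higd1b, a pericyte gene, stood at 2.14 CPM with Actc1 only, 13.5 CPM with both, 186 CPM with Rgs5 only and 6.18 CPM with neither. Vtn, vitronectin, a plasma and matrix glycoprotein, stood at 0 CPM with Actc1 only, 76.5 CPM with both, 262 CPM with Rgs5 only and 0 CPM with neither. For both genes members with both Actc1 and Rgs5 lay between the 2 sides. Most members with Rgs5 only had no UMI of either gene alone: Higd1b was detected in 30 of 118 (25.4%) and Vtn in 28 (23.7%). With Actc1 only they were detected in 1 and 0 of 148 members. Pdgfrb, the receptor that recruits pericytes, had 186 CPM with Actc1 only against 593 CPM with Rgs5 only. Ndufa4l2, a mitochondrial subunit, had 91.9 CPM with Actc1 only against 527 CPM with Rgs5 only, and Gucy1a1 had 246 CPM with Actc1 only against 772 CPM with Rgs5 only.

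Genes of matrix, transcription factors and signals were also among those lower with Actc1 only. Col3a1 had 526 CPM with Actc1 only against 2182 CPM with Rgs5 only, and Eln had 1195 CPM with Actc1 only against 2529.6 CPM with Rgs5 only. Col8a1, a short-chain collagen of vessel walls, had 38.5 CPM with Actc1 only against 305 CPM with Rgs5 only, and Timp3, a matrix-bound metalloproteinase inhibitor, had 1345 CPM with Actc1 only against 3465 CPM with Rgs5 only. Of 24 transcription factors 6 were lower: Ebf1, Nr2f2, Zeb2, Prrx1, Tbx5 and Tcf21. Meis2, a homeobox factor, was higher, at 32.1 CPM with Actc1 only against 13.3 CPM with Rgs5 only. Nr2f2, an orphan nuclear receptor of veins and mesenchyme, had 269 CPM with Actc1 only against 902 CPM with Rgs5 only. Ebf1, a factor also known from pericytes and B cells, had 363 CPM with Actc1 only against 952 CPM with Rgs5 only. In the bone morphogenetic protein family Bmp5 had 32.1 CPM with Actc1 only against 169 CPM with Rgs5 only, and Bmp2 had 6.41 CPM with Actc1 only against 66.3 CPM with Rgs5 only. Fst, follistatin, a secreted antagonist of activins, had 4.28 CPM with Actc1 only against 72.9 CPM with Rgs5 only.

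**Figure D3:**
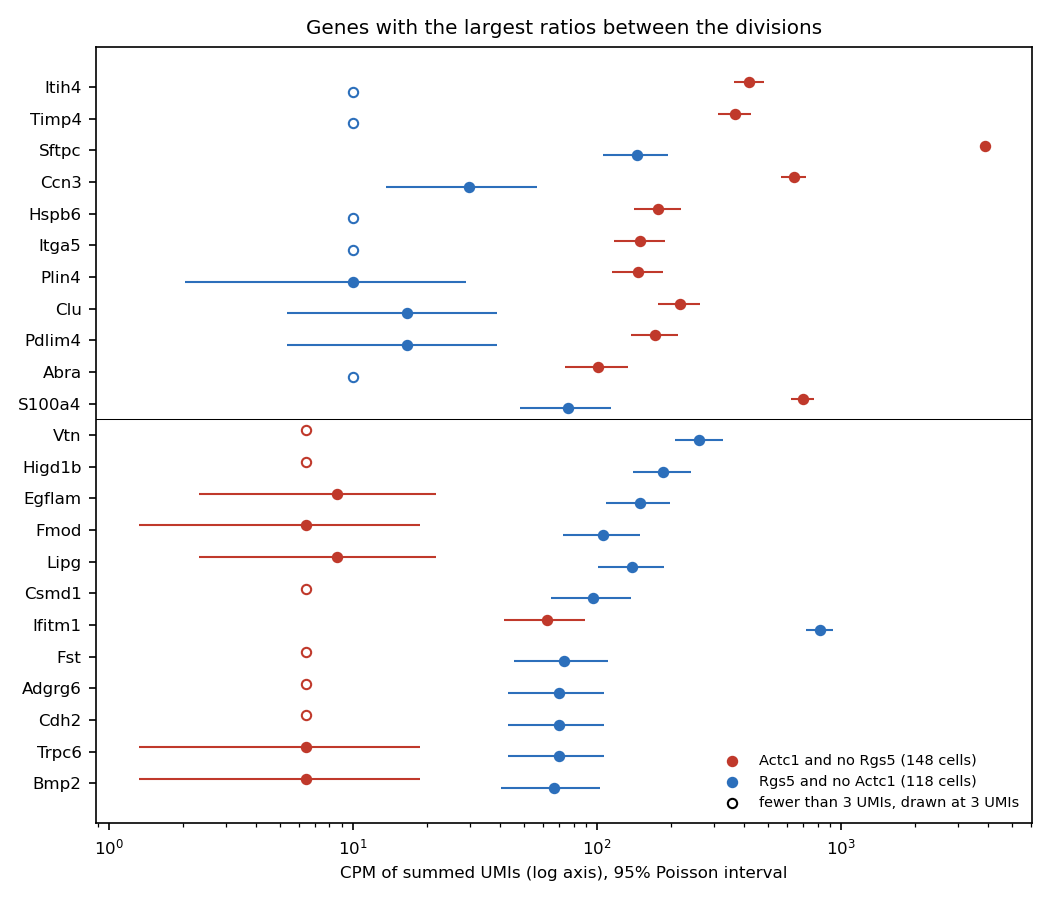
Level in CPM (log axis, with exact Poisson intervals) of genes with the largest ratios each way, in members with Actc1 only (red) and with Rgs5 only (blue); open circles stand for fewer than 3 UMIs and are drawn at 3 UMIs. Above the line red lies to the right, below it blue does; Sftpc at the far right is the gene whose UMIs lie mostly in 1 member.

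Ccl19, a chemokine that guides lymphocytes and dendritic cells and is best known from lymph node stroma, was chosen for mention after its values were seen. It was detected in 54 of 148 (36.5%) members with Actc1 only and 95 of 118 (80.5%) with Rgs5 only. Its level was 314 CPM with Actc1 only, 594 CPM with both, 1674 CPM with Rgs5 only and 402 CPM with neither. Thinned to 2000 UMIs a cell, the shares were 30.9% with Actc1 only and 80.2% with Rgs5 only, and immune cells, unthinned, gave 0.888%.

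Markers of other cells moved with this division in a few members. All 9 alveolar type 2 (AT2) genes tested were higher with Actc1 only, summed to 5503 CPM with Actc1 only and 225 CPM with Rgs5 only. Sftpc, the surfactant protein, had 3863 CPM with Actc1 only against 146 CPM with Rgs5 only. A single member of 10871 UMIs held 1393 of the 1807 Sftpc UMIs with Actc1 only; without it Sftpc had 906 CPM with Actc1 only and 146 CPM with Rgs5 only. The AT2 sum without that member was 1549.7 CPM with Actc1 only and 225 CPM with Rgs5 only, with 8 of 8 genes tested higher. Among members that also lacked 7 marker genes of other cells the log2 ratio of Sftpc was -0.18. The summed myeloid genes were 748 CPM with Actc1 only and 192 CPM with Rgs5 only, with 1 of 2 genes tested higher. Over all members Lyz2, a lysozyme gene, made up 347 of the 436 CPM of this list. At least 3 myeloid genes were carried by 1 member with Actc1 only, 4 with both and 2 with Rgs5 only. Without the member richest in Sftpc, 507 genes were higher with Actc1 only and 950 lower over the whole comparison, and among members that lacked the 7 marker genes 517 were higher and 1138 lower.

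Splitting the members by Actg2 gave fewer genes on the high side than on the low side. Of 7391 tested, 247 (3.34%) were higher in the 314 members with Actg2 and 944 (12.8%) lower. The median depth was 2910 UMIs with Actg2 and 1922 UMIs without it. Where the interval had also to leave out 1, 133 were higher and 437 lower. Thinned to 2000 UMIs a cell, the calls were 164 higher and 1734 lower. Thinning left out most of the members without Actg2, as their median lay below 2000 UMIs. With few UMIs left in that group, genes could be called lower through the floor of 3 UMIs. Chrm2 had 74 UMIs in 27 members with Actg2 and 0 in those without, at least 4.76-fold higher with Actg2. Hspb6 had 136 CPM with Actg2 against 21.4 CPM without it, Pdlim4 had 136 CPM with Actg2 against 21.4 CPM without it, and Itih4 had 262 CPM with Actg2 against 58.9 CPM without it. Rbpms2, an RNA-binding protein of smooth muscle development, had 123 CPM with Actg2 against 26.8 CPM without it, and Atf3, a stress-response factor, had 319.7 CPM with Actg2 against 75.0 CPM without it. The surfactant genes Sftpc, Sftpa1 and Sftpb were also higher with Actg2, with 74.6%, 76.4% and 53.8% of their UMIs there in 1 member. On the low side Col8a1 had 51.7 CPM with Actg2 against 429 CPM without it. Marcks, a membrane-bound actin regulator, had 89.0 CPM with Actg2 against 445 CPM without it, and Higd1b had 26.9 CPM with Actg2 against 188 CPM without it.

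Lists of airway and vascular smooth muscle genes were each split between the sides of Actc1 and Rgs5. Of the airway genes 3 of 7 were higher with Actc1 only, which were Actc1 itself, Actg2 and Lgr6, a receptor for R-spondins. Hhip (chr8:79965851-80058006, minus strand), the hedgehog-interacting protein, was the airway gene called lower, at 133 CPM with Actc1 only against 315 CPM with Rgs5 only. Of the 9 vascular genes 2 were higher and 3 lower, Rgs5 among the lower. Mustn1 and Notch3, of that list, were not called, Mustn1 at 3998 CPM with Actc1 only against 2509.7 CPM with Rgs5 only and Notch3 at 487 CPM with Actc1 only against 769 CPM with Rgs5 only.

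**Figure D4:**
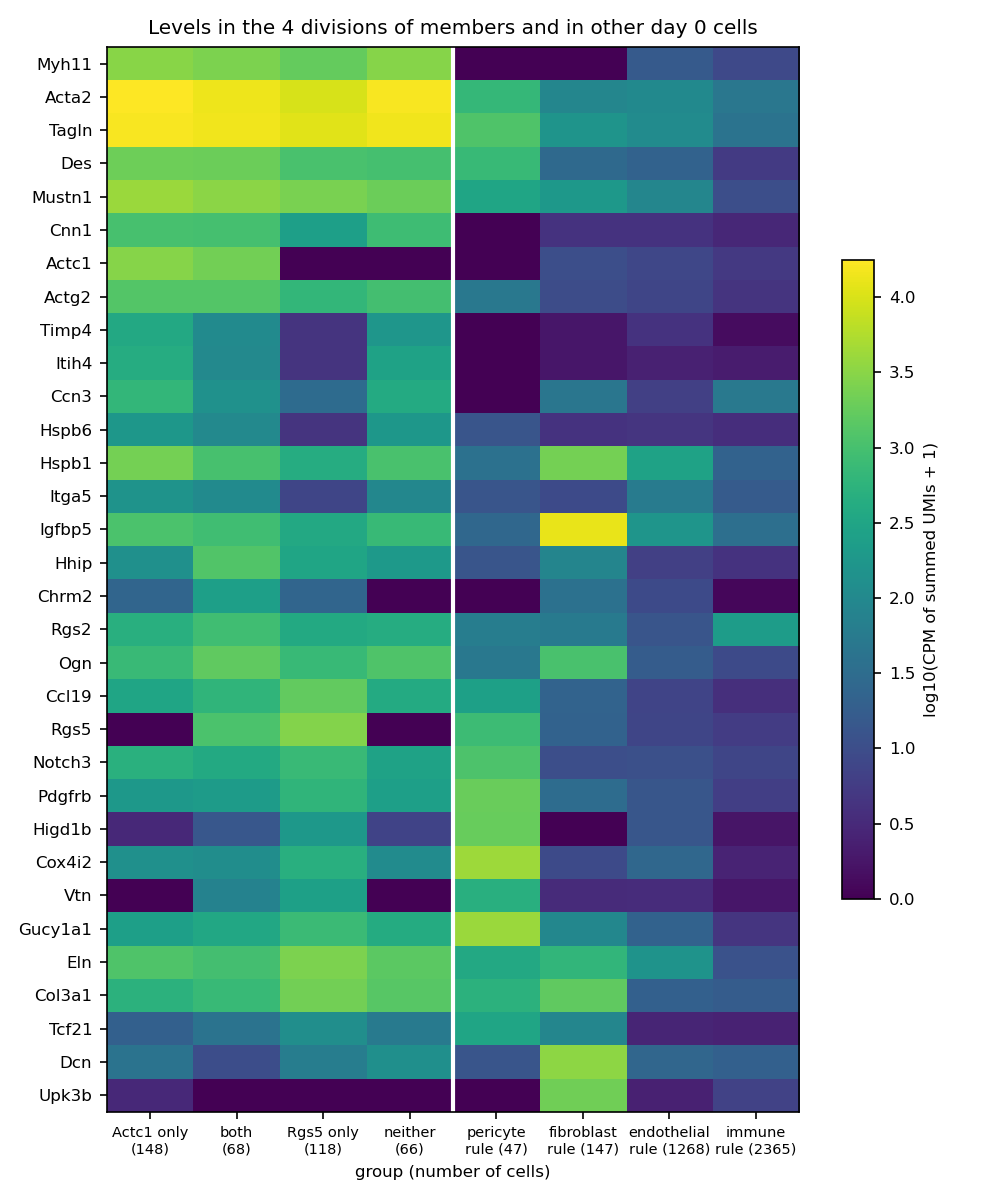
Level, as log10 of CPM + 1 (colour bar), of genes discussed here in the 4 divisions of members (left of the white line) and in cells of day 0 chosen by pericyte, fibroblast, endothelial and immune rules, with the number of cells under each column. Acta2 and Tagln, which chose the members, are bright in all 4 divisions, and Timp4 and Itih4 are dark with Rgs5 only. Higd1b and Cox4i2 are brightest in pericyte-rule cells, which those genes helped to choose.

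Hhip marked a smaller set of members, a split chosen after its values were seen. It was detected in 50 members, 43 of them, called Hhip members here, with 2 or more UMIs and up to 48. Members with exactly 1 Hhip UMI were left out, and 350 members had none. Hhip stood at 133 CPM with Actc1 only, 1220.3 CPM with both, 315 CPM with Rgs5 only and 198 CPM with neither. The median depth was 2803 UMIs in Hhip members and 2694 UMIs in members without Hhip. Actc1 was detected in 28 of 43 (65.1%, 49.1 to 79.0) of Hhip members, against 184 of 350 (52.6%, 47.2 to 57.9) of members without Hhip. Rgs5 was detected in 31 of 43 (72.1%, 56.3 to 84.7) of Hhip members, against 153 of 350 (43.7%, 38.4 to 49.1) of members without Hhip. These intervals cover counting error in cells of 1 library and do not test the split, chosen after its values were seen. Of 7768 genes tested, 1368 (17.6%) were higher and 482 (6.2%) lower in Hhip members; where the interval had also to leave out 1, 668 were higher and 321 lower.

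Several receptor and matrix genes were detected in many Hhip members and few of those without Hhip. Chrm2 was detected in 21 of 43 (48.8%, 33.3 to 64.5) Hhip members, against 5 of 350 (1.43%, 0.465 to 3.30) without Hhip. Sbspon, a secreted thrombospondin-type protein, was detected in 30 of 43 Hhip members and 5 of 350 without Hhip. Tgfbi, a matrix protein induced by TGF-beta, was detected in 24 of 43 Hhip members and 5 of 350 without Hhip, and Scx, the tendon factor scleraxis, in 18 of 43 Hhip members and 4 of 350 without Hhip. Igf1, an insulin-like growth factor, was detected in 13 of 43 Hhip members and 1 of 350 without Hhip, and Sema3c, a secreted guidance protein, in 20 of 43 Hhip members and 4 of 350 without Hhip. These 6 genes lay the same way by level, with Tgfbi at 361 CPM in Hhip members against 6.05 CPM in members without Hhip.

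Further genes higher in Hhip members were also present in those without Hhip. Ogn, osteoglycin, a small matrix proteoglycan, had 3443 CPM in Hhip members against 592 CPM in members without Hhip. Rgs2, a regulator of G protein signalling, had 1913 CPM in Hhip members against 279 CPM in members without Hhip. Pde5a, the cyclic GMP phosphodiesterase, had 974 CPM in Hhip members against 215 CPM in members without Hhip. Foxf1, a mesenchymal factor downstream of hedgehog signalling, had 303 CPM in Hhip members against 40.3 CPM in members without Hhip. Kcnj8, a potassium channel subunit, had 310.3 CPM in Hhip members against 20.2 CPM in members without Hhip, and Lgr6 had 180.4 CPM in Hhip members against 29.2 CPM in members without Hhip. The alveolar myofibroblast list, without Hhip, had 5 higher and 0 lower of 5 tested, and the airway list, without Hhip, 3 higher and 0 lower of 6 tested.

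Some genes of the vascular, pericyte, Notch, transcription factor and matrix lists were lower in Hhip members. Ebf1 was detected in 1 of 43 Hhip members and 248 of 350 without Hhip, at 14.4 CPM in Hhip members against 611 CPM in members without Hhip. Notch3 was detected in 4 of 43 Hhip members and 238 of 350 without Hhip, at 57.7 CPM in Hhip members against 586 CPM in members without Hhip. Eln had 195 CPM in Hhip members against 1755 CPM in members without Hhip, and Pdgfrb had 36.1 CPM in Hhip members against 352 CPM in members without Hhip. Gucy1a1 had 57.7 CPM in Hhip members against 488 CPM in members without Hhip, and Heyl had 14.4 CPM in Hhip members against 183 CPM in members without Hhip. Ccl19, which is in none of the lists, had 43.3 CPM in Hhip members against 849.8 CPM in members without Hhip. Itih4 was detected in 0 of 43 Hhip members and 73 of 350 without Hhip, and a share of 0 in 43 cells allows up to 8.22%.

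By list, the vascular genes had 0 higher and 5 lower of 9 tested in Hhip members (median log2 ratio -1.62), the pericyte genes 1 higher and 8 lower of 13 tested (median -1.62) and the Notch genes 0 higher and 4 lower of 7 tested (median -1.38). The median over all genes tested was 0.12. The thin filament had 0 higher and 0 lower of 10 tested. Of markers of other cells the AT2 list had 0 higher and 7 lower of 9 tested, summed to 159 CPM in Hhip members and 2699.6 CPM in members without Hhip. Of the 2678 AT2 UMIs in members without Hhip, 1866 were in 1 cell, the member richest in Sftpc. The AT1 list had 0 higher and 5 lower of 7 tested, summed to 368 CPM in Hhip members and 989 CPM in members without Hhip. The airway secretory list had 2 higher and 0 lower of 5 tested, summed to 5738 CPM in Hhip members and 6297 CPM in members without Hhip. The ciliated list had 7 higher and 0 lower of 8 tested, and 60.8% of those UMIs in the Hhip members were in 1 cell. Without that cell the summed ciliated level was 462 CPM in Hhip members, against 345 CPM in members without Hhip. Among members that lacked the 7 marker genes of other cells, 1675 genes were higher in Hhip members and 335 lower.

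**Figure D5:**
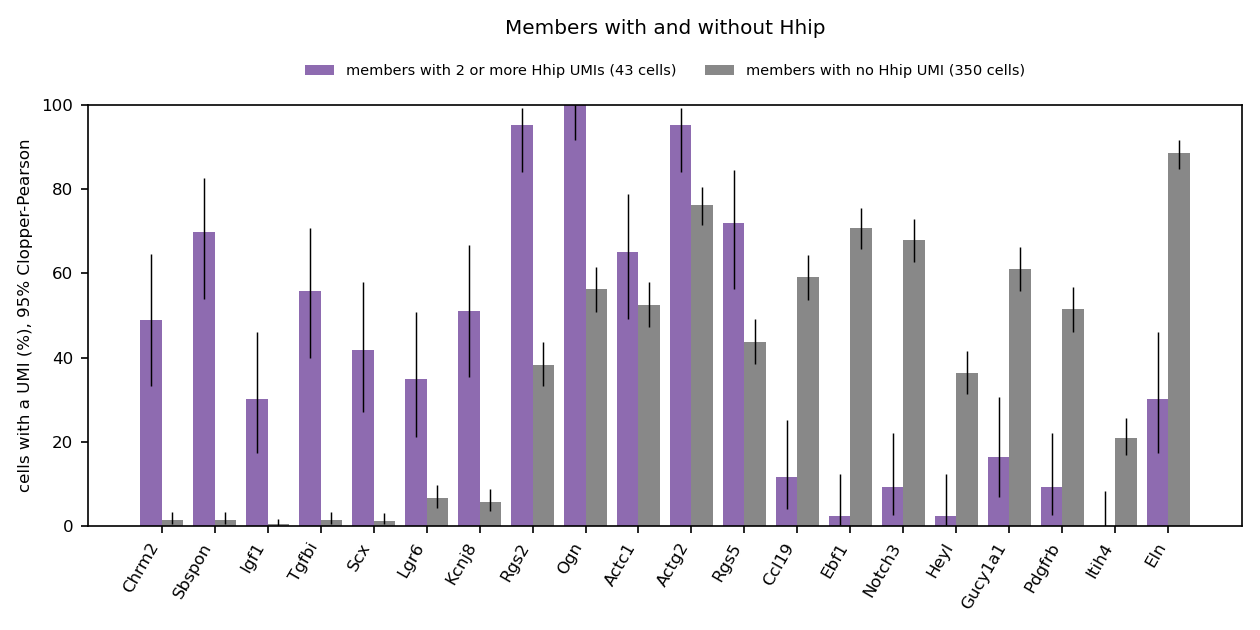
Share of members with a UMI of each gene (percent), in the 43 members with 2 or more Hhip UMIs (purple) and the 350 with none (grey); bars carry exact Clopper-Pearson intervals for counting error. Chrm2, Sbspon, Igf1, Tgfbi and Scx are near 0 in the grey bars, and Ebf1, Notch3 and Eln are high there and low in purple.

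The members were set beside 47 pericyte-rule cells of the same library. These had a Pdgfrb UMI, at least 2 UMIs of Cspg4, Notch3, Higd1b and Cox4i2 together, no Myh11, no Cldn5 or Ptprc, and fewer than 5 UMIs of Col1a1, Col1a2 and Dcn. Of 7912 genes tested, 438 (5.54%) were higher in members and 2606 (32.9%) lower. The pericyte-rule cells held 80686 UMIs in all, so 2 UMIs in them came to 24.8 CPM, above the 20 CPM minimum. Such counts were set to 3 UMIs in the ratio, so genes could be called lower through that floor. Where the interval had also to leave out 1 the lower count was 1156. Thinned to 2000 UMIs a cell, which kept 10 of the 47 pericyte-rule cells, 132 genes were higher in members. Pericyte-rule cells also held 3334 CPM of AT1 and 1128 CPM of endothelial genes in sum, against 908 CPM and 62.4 CPM in members. Of thin filament genes, 8 were called higher and 0 lower of 10 tested. Acta2 and Tagln among them chose the members, and the pericyte rule left out cells with Myh11. Some lists had more genes lower than higher, as did all genes tested (median log2 ratio -0.60). The cyclic nucleotide genes had 3 higher and 5 lower of 11 tested, with a median of -0.30, above that of all genes. The contractile and relaxant receptors had 2 higher and 6 lower of 11 (median -1.24). The Notch genes, of which Notch3 helped to choose the pericyte-rule cells, had 0 higher and 5 lower of 8 (median -1.18). Actc1 and Cnn1 had 0 UMIs in pericyte-rule cells, and members were at least 44.4-fold higher for Actc1 and 21.1-fold for Cnn1. Thbs1, a matricellular thrombospondin, had 1397 CPM in members against 24.8 CPM in pericyte-rule cells. Igfbp5, an insulin-like growth factor binding protein, had 819 CPM in members against 24.8 CPM in pericyte-rule cells. On the low side Hsd11b1, which activates glucocorticoid, had 8.67 CPM in members against 942 CPM in pericyte-rule cells, and Pcdh18, a protocadherin, had 14.7 CPM in members against 929.5 CPM in pericyte-rule cells. Higd1b, used to choose those cells, was 52.9 CPM in members, 186 CPM in members with Rgs5 only and 1809 CPM in pericyte-rule cells.

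Fibroblast-rule cells were 147 day 0 cells with at least 5 UMIs of Col1a1, Col1a2 and Dcn together, no Myh11 and no Cldn5, Ptprc or Epcam. Against them 1016 of 7304 genes (13.9%) were higher in members and 1137 (15.6%) lower. The lowest ratios included mesothelial genes such as Upk3b and Msln, and 82 of the 147 cells carried a mesothelial UMI. Against the other 65, a restriction chosen after seeing the data, all 10 thin filament genes tested were higher in members. Acta2 and Tagln among them chose the members, and the fibroblast rule left out cells with Myh11. All 15 fibroblast genes were lower in members than in those 65 cells, a list that holds the genes the cells were chosen by. Of the interstitial matrix 5 were higher and 20 lower of 30, whereas against all 147 cells 8 were higher and 9 lower. The shares over all genes given above are for the 147 cells. Those for the 65 cells are not given here, so these counts have no background beside them. Eln had 1537 CPM in members and 965 CPM in those fibroblast-rule cells, and Col1a1 377 CPM in members and 2105 CPM in those fibroblast-rule cells.

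The library is labelled GFP-positive, and the members carried more tdTomato than EGFP. EGFP stood at 85.0 CPM in members, against 219.8 CPM in the rest. The unswitched reporter tdTomato stood at 283 CPM in members, against 242 CPM in the rest. Of the 94 members with at least 2 reporter UMIs, 6 had at least 80% of them from EGFP, against 613 of 2540 such cells in the rest. Other non-epithelial cells also held more tdTomato. Immune cells had 61.1 CPM of EGFP and 234 CPM of tdTomato, endothelial cells (at least 2 Cldn5 UMIs and no Ptprc) 136 CPM of EGFP and 567 CPM of tdTomato, and fibroblast-rule cells 7.10 CPM of EGFP and 116 CPM of tdTomato. EGFP made up at least 80% in 27 of 905 such immune cells and 20 of 505 such endothelial cells. Gramd2, the gene behind the Cre driver, was detected in 6 members, at 7.80 CPM in members and 16.9 CPM in the rest. Whether these members entered the library by their reporter was not tested.

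After culture the same choice found almost no cells. It took 2 of 7893 cells at day 8, 0 of 9311 at day 13, which allows a share of up to 0.0396%, and 1 of 9178 at day 20. Myh11 over all cells was 112 CPM at day 0, 0.142 CPM at day 8, 0.111 CPM at day 13 and 0.0543 CPM at day 20. Acta2 was 653 CPM at day 0, 15.3 CPM at day 8, 22.9 CPM at day 13 and 44.2 CPM at day 20. The cultures were enriched for EpCAM before capture and were deeper (median 9527 to 17075 UMIs), and with 1 library a day, culture, enrichment and library cannot be told apart. Pairs of libraries shared 25 to 41 cell barcodes.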

How the data were processed

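The 4 libraries of mouse lung cells were deposited by the authors as UMI counts, with 1 row per gene and 1 column per barcode. The submitters' processing notes name Cell Ranger 7.0.1 and the mm10 build. The annotation, the strand setting and any treatment of free RNA or doublets before deposit were not given in the labels or notes. The day 0 matrix held 8902 barcodes, of which 7350 passed 500 genes and 15% mitochondrial UMIs (median 2558.5 UMIs). From these counts UMIs were summed over the cells of a group and divided by the group's total, to CPM. Log2 ratios set each side to at least 3 UMIs. A gene was tested when it had at least 20 CPM in either group, and called when at least 2-fold apart. Cells of 1 library are not replicates, so there are no p-values; intervals are exact Poisson or Clopper-Pearson. The calculation was checked on simulated counts. Scrublet (Scanpy 1.11.5) called 0 cells by its automatic threshold, so doublets were kept, and removing the 523 highest scores, 13 of them members, was an alternative. Python 3.11.15, NumPy 2.4.6 and SciPy 1.17.1 were used. The named genes were the 25 largest and 15 lowest ratios against the rest, the 12 each way between Actc1 only and Rgs5 only and the 10 each way in the other comparisons, among genes with at least 50 CPM and, outside the comparison with the rest, UMIs in at least 10 cells of the higher group; genes that chose the cells, mitochondrial, ribosomal, haemoglobin and immunoglobulin genes and predicted models were left out, and members of 33 gene lists were added. The members and the lists were chosen with earlier results of these data known, and the Hhip split, Ccl19 and the stricter fibroblast cells after values were seen. Promoter windows are from RefSeq; Myh11, Tagln and Actg2 are not shown. Some named genes are not reported here.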

Additional observations from a re-analysis of the deposited data

How the results depend on the processing

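Of the counts and shares recomputed under other settings, 177 stayed within 1.5 times or the counting interval of their value and 38 did not; the cause was not tested. With a 3-fold limit the calls were 160 higher and 390 lower for Actc1 only against Rgs5 only, 43 higher and 320 lower for Actg2, 557 higher and 710 lower for the fibroblast cells, 172 higher and 1446 lower for the pericyte cells and 707 higher and 171 lower for Hhip. With at least 50 CPM they were 773 higher and 832 lower against the rest, 212 higher and 397 lower for Actc1 only against Rgs5 only, 131 higher and 309 lower for Actg2, 566 higher and 652 lower for the fibroblast cells, 1275 lower for the pericyte cells and 523 higher for Hhip. Where the interval had also to exclude 1, an alternative added after seeing the data, they were 280 higher and 550 lower for Actc1 only against Rgs5 only, 133 higher and 437 lower for Actg2, 668 higher and 321 lower for Hhip and 1156 lower for the pericyte cells. Thinned to 2000 UMIs a cell, which left out most members without Actg2, they were 164 higher and 1734 lower for Actg2. With the same thinning they were 132 higher for the pericyte cells (10 of 47 kept) and 277 lower for Hhip. These alternatives were planned for the comparisons with the rest and between Actc1 and Rgs5 and were added after seeing the data for the others.

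The share of day 0 cells that were members was 6.18% with 1 Myh11 UMI, 4.68% with 3, 3.52% without any UMI of 7 further markers of other cells, 6.23% from 1000 genes a cell, 6.03% without the Cldn5 and Ptprc condition and 4.75% without a gene minimum. The share with Actg2 was 84.2% from 1000 genes a cell; that with Actc1 ranged over 49.8 to 57.8% and that with Rgs5 over 43.9 to 49.3%. Of the log2 ratios of named genes 593 stayed within their counting interval, 174 moved and 1 turned its sign, that of Sftpc between Actc1 only and Rgs5 only, to -0.18 when members also lacked the 7 markers.

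No paired analysis was possible because each day has 1 library and no replicate numbers. At a median of 2716.5 UMIs a member, a gene without a UMI in a cell is not shown to be off, and genes near 20 CPM in the smaller groups rest on few UMIs. Free RNA, doublets and the assignment of reads among near-identical actins were not corrected here.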

Other observations

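Caveolae, the membrane pits that smooth muscle holds in number, were partly represented in members: of their genes, 4 were called higher and 0 lower of 8 tested. Cavin1, their coat protein, stood at 551 CPM in members against 132 CPM in the rest and Cavin3 at 654 CPM in members against 60.5 CPM in the rest, while Cav1, which AT1 and endothelial cells also express, was 506 CPM in members against 317 CPM in the rest. Ckb, brain-type creatine kinase, stood at 1032 CPM in members against 95.5 CPM in the rest, and the muscle-type Ckm and the myoglobin gene Mb had 0 UMIs. Ndufa4l2 and Cox4i2, mitochondrial subunits, are known to respond to low oxygen. Ndufa4l2 stood at 209.9 CPM in members against 12.2 CPM in the rest, and Cox4i2 at 217 CPM in members against 23.0 CPM in the rest. Pericyte-rule cells had 1748 CPM of Ndufa4l2.

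Of the contractile and relaxant receptors 2 were higher and 6 lower with Actc1 only of 13 tested (median log2 ratio -0.78), beside 7.6% higher and 13.5% lower of all genes tested. Several rest on few UMIs. P2rx1, the purinergic channel of smooth muscle, had 29 UMIs with Actc1 only and 1 with Rgs5 only, while Agtr1a, the angiotensin receptor, had 2 UMIs with Actc1 only and 11 with Rgs5 only. F2r, the thrombin receptor, had 18 UMIs with Actc1 only and 41 with Rgs5 only.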
